A study of Mus musculus with 18 samples.

Results

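The genes of the smooth muscle contractile apparatus were followed in mouse aortas kept in organ culture with or without aldosterone. The group holds 39 listed genes: filament proteins, actin-binding proteins, myosin kinase and phosphatase subunits, regulators of their transcription, ion channels and calcium store proteins, and proteins of the adhesions that anchor the filaments. Every probe set annotated to one of these symbols alone was taken, which gave 66 probe sets for 35 of the 39 genes, out of 20380 probe sets of a single gene on the array. No probe set was matched to Myh10, Ppp1r12a, Ppp1r12b or Itpr1. Pln, the inhibitor of the sarcoplasmic calcium pump, had 3 probe sets with log2 values between 2.21 and 5.07, and did not exceed a log2 value of 4 in at least 3 of the 18 samples. The other 34 genes passed that filter and were tested among 7092 genes, each represented by its probe set with the highest mean.

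Smooth muscle cells of the media shorten when calcium and calmodulin switch on myosin light chain kinase, which phosphorylates the regulatory light chain and lets myosin pull on actin. Myosin phosphatase reverses this step, and the inhibitor encoded by Ppp1r14a holds the phosphatase back. Transcription of many of these genes is driven by serum response factor (Srf), which binds a short AT-rich element called the CArG box, together with its muscle coactivator myocardin (Myocd). In culture and after injury, vascular smooth muscle cells are known to lower this programme.

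All samples came from wild type male C57Bl/6 mice. Every mouse, controls included, had carried a spironolactone pellet for 5 days at 20 mg/kg/day, a drug that blocks the mineralocorticoid receptor. Aortas were then cultured in DMEM with vehicle or with 100 nM aldosterone, the mineralocorticoid hormone, for 2, 4 or 8 h. Each of the 6 groups has 3 samples, each a separate pool of 3 aortas, and no uncultured aorta was analysed here, so every change with time starts at 2 h of culture. The age of the mice is not given in the sources used here. The comparisons ask what the hormone did to these genes at each time, and how they moved over the hours of culture within each treatment.

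Of the defining smooth muscle markers, 9 of 9 (Acta2, Myh11, Tagln, Cnn1, Smtn, Lmod1, Mylk, Myocd and Des) were measured above the filter. The pools also held other cells. Above the filter were 8 of 8 fibroblast, 10 of 11 endothelial, 9 of 10 macrophage and 8 of 9 fat cell markers on the array, against 3 of 6 for cardiac muscle, 2 of 6 for lymphocytes, 2 of 5 for nerve, 1 of 2 for red blood cells, 0 of 6 for skeletal muscle and 0 of 4 for mesothelium. One array stands apart. In vehicle 2 h replicate 1 the median over all probe sets was 4.42, against 4.01 to 4.09 in the other 17 samples, and 908 of 7092 genes lay more than 1 log2 unit from the mean of the other 2 vehicle pools at 2 h (17 to 239 genes in the other samples). Among the contractile genes its values differed from those pools by between -1.40 (Cald1) and 0.82 (Myl6), and several of the most abundant members were low in it: Acta2 read 13.99 against a mean of 14.90, and Myh11 read 12.50 against 13.76. Most members were higher in it, among them Flna (13.67 against 13.09), Myl9 (13.48 against 12.95) and Srf (8.61 against 8.04). A high value in this array makes a fall from 2 h in vehicle larger. The changes from 2 h in vehicle that were called differently without this array are named below, and some others are given both ways. Others are given with all arrays only, such as Cnn2 from 2 to 8 h, which read 0.71 above those pools in this array. The falls of Srf, Myl9, Tpm1, Pdlim3 and Actg2 from 2 to 8 h, also high in it, are given in the same way.

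Because so much of this gene group is known to answer to Srf, the stretches upstream of the annotated starts were searched for its element. All matches to the unaltered element are shown, and some of those to a variant. The CArG box is CC, then 6 bases that are each A or T, then GG, and reads the same way on both strands. In the 250 bases before the start it was found in 5 of the 32 members that have a RefSeq promoter entry (15.6%: Cnn2, Myl6, Myl9, Srf and Vcl) and in 439 of 27025 genes overall (1.62%). Myocd, Myh11, Tagln, Actg2, Tgfb1i1, Itpr1 and Atp2a2 have no such entry and were not searched. A version with 1 G or C among the 6 middle bases was also found in 5 of 32 (15.6%: Acta2, Cacna1c, Itga5, Myl9 and Pdlim3, so Myl9 holds both), against 8.33% of all genes. CATTCC, the motif of the TEAD factors, was found on either strand in 12 of 32 (37.5%), against 14.4% of all genes. A match describes the letters in this window and is not evidence of binding. Capitals mark the CArG box, or its 1-base variant in Acta2 and Pdlim3. The variant matches of Cacna1c, Itga5 and Myl9 are not printed. The sequences are from RefSeq on GRCm38.p6 and are written in the direction of the gene.
Srf, chr17:46556215-46556244, minus strand: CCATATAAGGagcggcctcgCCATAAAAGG
Cnn2, chr10:79988519-79988578, plus strand: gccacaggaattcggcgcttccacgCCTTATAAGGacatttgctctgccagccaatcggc
Myl9, chr2:156775293-156775322, plus strand: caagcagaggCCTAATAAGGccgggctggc
Vcl, chr14:20929161-20929190, plus strand: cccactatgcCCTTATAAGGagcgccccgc
Myl6, chr10:128493040-128493069, minus strand: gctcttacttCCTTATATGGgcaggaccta
Acta2, chr19:34255438-34255467, minus strand: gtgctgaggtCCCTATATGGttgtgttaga
Acta2, chr19:34255388-34255417, minus strand: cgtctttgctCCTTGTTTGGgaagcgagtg
Pdlim3, chr8:45885362-45885421, plus strand: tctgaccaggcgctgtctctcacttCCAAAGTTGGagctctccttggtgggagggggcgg
The Srf promoter window holds a pair of boxes, starting at positions -82 and -62 relative to the annotated start. Acta2 holds both of its matches in the 1-base variant, and no unaltered box in this window.

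Over 6 h of culture most of the contractile programme went down. In vehicle, 20 of the 34 genes were lower at 8 h than at 2 h and 4 were higher (limma, adjusted p under 0.05). Over all genes tested 58.5% were called in this comparison, 31.9% lower and 26.6% higher, so the share of contractile genes called lower, 58.8%, stands beside 31.9%. Their median log2 difference was -0.62, against -0.07 over all genes. With aldosterone 23 of 34 were lower and 3 higher (67.6% lower), against 56.5% of all genes called, 27.3% lower and 29.2% higher. The median was -0.76, against 0.02 over all genes. Without vehicle 2 h replicate 1 the vehicle counts were 22 lower and 5 higher, against 28.6% and 32.4% of all genes. In 17 of the 34 genes all 6 samples at 8 h lay below all 6 samples at 2 h, as they did for 24.4% of all genes. Without vehicle 2 h replicate 1 this held for 22 genes, against 26% of all genes. The reverse, all 8 h samples above all 2 h samples, held for Itga5 and Pdlim7 (2 of 34, against 20.9% of all genes), and without that array also for Smtn and Tgfb1i1 (4 of 34, against 29.2%). In bulk tissue, fewer smooth muscle cells and less RNA per smooth muscle cell cannot be told apart.

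The 19 genes lower in both treatments were Tagln, Myh11, Tpm1, Tpm2, Myl9, Actg2, Cnn1, Cnn2, Lmod1, Mylk, Ppp1r14a, Myocd, Srf, Csrp1, Pdlim3, Flna, Vcl, Actn1 and Itga8. With each sample left out in turn, 15 of the 19 kept both calls; the other 4 were Myh11, Lmod1, Flna and Actn1. Itga5, Pdlim7 and Tgfb1i1 were higher in both and kept both calls in the same fits, and 0 genes were called in opposite directions. The shares of all genes called in both treatments, in the same or in opposite directions, are not given here. The joint counts are therefore not set against a background. Lpp, Tln1, Kcnmb1, Myl6, Cacna1c and Kcnma1 were called in neither treatment with all arrays, but Lpp, Kcnmb1 and Myl6 were called without a single one, as given for each below. Des was lower and Smtn higher in vehicle, and Acta2, Synpo2, Cald1 and Atp2a2 were lower with aldosterone. None of these 6 genes passed the test of whether the hormone's effect differed between the times (0 of the 34 did, below), so a treatment-specific course was not shown for any of them.

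**Figure D1:**
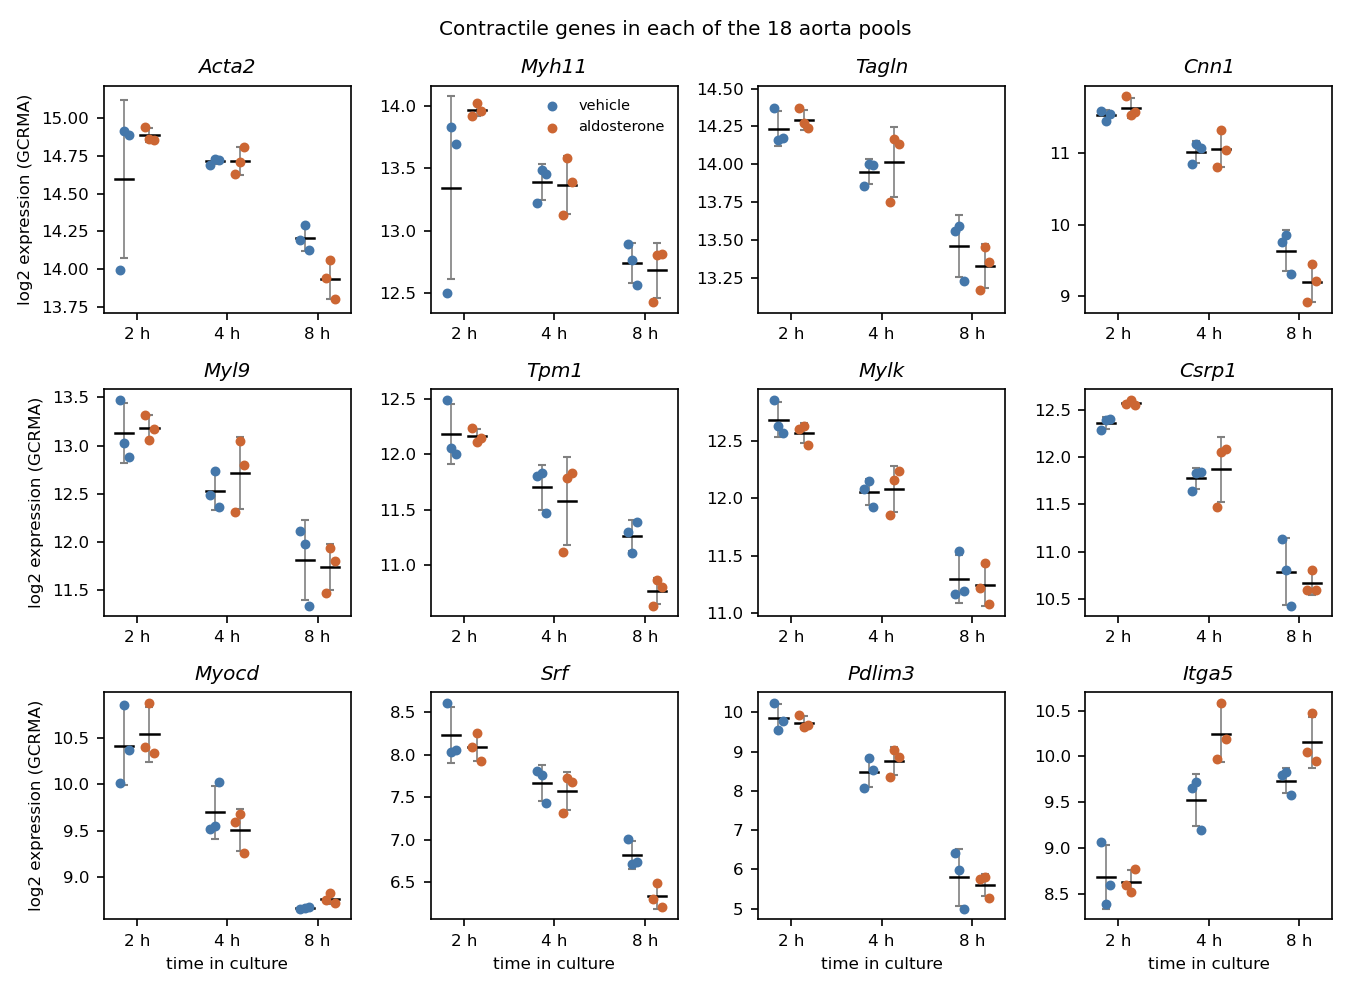
Log2 GCRMA expression (vertical axis) of 12 contractile genes in each of the 18 aorta pools, by time in culture; points are pools, black bars are means and whiskers 1 SD (n = 3), vehicle in blue and aldosterone in orange. Scales differ between panels. Within each treatment the 8 h pools lie below the 2 h pools in all panels except Itga5, which rises, and the vehicle side of Acta2 and Myh11, where replicate 1 at 2 h is low.

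Of the filament proteins, the contractile actins, the smooth muscle myosin heavy chain, its light chains and the tropomyosins, 5 of 7 were lower at 8 h in vehicle and 6 of 7 with aldosterone. The shares lower over all genes were 31.9% and 27.3%. Acta2 encodes smooth muscle alpha-actin. It read 13.99, 14.92 and 14.89 in vehicle at 2 h, 14.69, 14.73 and 14.72 at 4 h, and 14.20, 14.29 and 14.13 at 8 h. With aldosterone it read 14.94, 14.86 and 14.86, then 14.63, 14.71 and 14.81, then 13.94, 14.06 and 13.80. Vehicle replicate 1 at 2 h lay below all 8 h vehicle pools, and the other pools fell into order by time with no overlap between 4 h and 8 h. The difference from 2 to 8 h was therefore -0.39 ± 0.17 (SE; limma, adjusted p = 0.0522) in vehicle, and -0.70 ± 0.08 (adjusted p = 1.5e-06) without that array. With aldosterone it was -0.95 ± 0.17, a 1.93-fold fall (adjusted p = 1.07e-04).

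Myh11 encodes the smooth muscle myosin heavy chain. In vehicle it read 12.50, 13.83 and 13.69 at 2 h, 13.22, 13.49 and 13.46 at 4 h, and 12.89, 12.76 and 12.57 at 8 h. With aldosterone the values were 13.92, 14.02 and 13.96, then 13.12, 13.58 and 13.39, then 12.43, 12.81 and 12.81. All 8 h pools lay below the 4 h pools in both treatments. The vehicle difference was -0.60 ± 0.24 (adjusted p = 0.0398) with all arrays and -1.02 ± 0.14 (adjusted p = 7.11e-06) without vehicle 2 h replicate 1. The call in vehicle was lost when vehicle 2 h replicate 2 (-0.36) or 3 (-0.43), or vehicle 8 h replicate 2 (-0.61) or 3 (-0.51), was left out. With aldosterone the difference was -1.28 ± 0.24, 2.43-fold.

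The other filament genes moved less or more evenly. Tpm1 and Tpm2, the tropomyosins that lie along the thin filament, fell by 0.92 and 0.80 on the log2 scale in vehicle and by 1.40 and 0.85 with aldosterone. Myl9, the regulatory light chain that the kinase phosphorylates, read 13.48, 13.03 and 12.88 in vehicle at 2 h and 12.12, 11.98 and 11.34 at 8 h. It fell 2.49-fold in vehicle and 2.72-fold with aldosterone. Actg2, the enteric-type smooth muscle actin, fell by 0.69 and 0.92. Myl6, the essential light chain, differed by -0.49 in vehicle (95% interval -0.97 to -0.01, adjusted p = 0.0746) and by 0.04 with aldosterone (-0.44 to 0.52), and passed the threshold in neither. It is also the member in which vehicle 2 h replicate 1 was furthest above its group, and without that array the vehicle difference was -0.21. Without vehicle 2 h replicate 2 it was -0.66 and passed the threshold (adjusted p = 0.0289).

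Among the actin-binding proteins, Cnn1 fell furthest. Cnn1 encodes calponin 1, which binds actin and slows the myosin ATPase. It read 11.58, 11.44 and 11.54 in vehicle at 2 h, 10.84, 11.12 and 11.07 at 4 h, and 9.75, 9.85 and 9.31 at 8 h. The aldosterone pools read 11.79, 11.53 and 11.56, then 10.80, 11.32 and 11.04, then 8.92, 9.46 and 9.21. No pool of one time overlapped a pool of another time within a treatment. The fall from 2 to 8 h was 3.69-fold in vehicle (-1.88 ± 0.16, adjusted p = 3.27e-08) and 5.4-fold with aldosterone (-2.43 ± 0.16, adjusted p = 1.76e-09).

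Its relative Cnn2 read 9.75, 9.08 and 9.01 in vehicle at 2 h and 8.22, 7.91 and 7.27 at 8 h, and 9.22, 9.56 and 9.24 with aldosterone at 2 h and 7.73, 8.08 and 7.42 at 8 h. It fell 2.79-fold and 3.03-fold. Tagln, the calponin-family protein transgelin (SM22-alpha), read 14.37, 14.16 and 14.17 in vehicle at 2 h, 13.85, 14.002 and 13.996 at 4 h, and 13.56, 13.59 and 13.22 at 8 h. Under aldosterone the values were 14.37, 14.27 and 14.24 at 2 h, 13.75, 14.17 and 14.13 at 4 h, and 13.17, 13.45 and 13.36 at 8 h. The 2 h and 8 h pools did not overlap, and the falls were 1.71-fold (-0.78 ± 0.12) and 1.96-fold (-0.97 ± 0.12).

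Lmod1, leiomodin 1, which nucleates actin filaments in smooth muscle, read 9.13, 8.96 and 8.72 in vehicle at 2 h, 8.58, 8.44 and 8.52 at 4 h, and 8.24, 8.34 and 7.79 at 8 h. In the aldosterone pools it measured 8.80, 8.99 and 8.89, then 8.38, 8.92 and 9.01, then 8.16, 8.66 and 8.23. It fell by 0.82 (SE 0.18, adjusted p = 0.00102) in vehicle and by 0.54 (SE 0.18, adjusted p = 0.0181) with aldosterone. The second call was lost without aldosterone 2 h replicate 2 (-0.49), or aldosterone 8 h replicate 1 (-0.45) or replicate 3 (-0.48).

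Smtn was the exception in this group. It encodes smoothelin, an actin-binding protein of fully contractile smooth muscle. It read 10.60, 9.82 and 10.04 in vehicle at 2 h, 9.54, 9.84 and 9.81 at 4 h, and 11.00, 10.83 and 10.42 at 8 h. Aldosterone pools gave 10.29, 10.21 and 10.29, then 9.66, 10.31 and 10.02, then 10.36, 10.65 and 10.60. The 8 h vehicle pools lay above all 4 h pools but overlapped the 2 h pools through vehicle replicate 1. From 4 to 8 h it rose in both treatments, by 1.02 ± 0.19 in vehicle (adjusted p = 5.29e-04) and by 0.54 ± 0.19 with aldosterone (adjusted p = 0.0351). The second of these calls was lost without aldosterone 4 h replicate 1 (0.38) or 3 (0.55), or aldosterone 8 h replicate 2 (0.49) or 3 (0.51). From 2 to 8 h the vehicle rise was 0.60 ± 0.19 (adjusted p = 0.014), 0.82 without vehicle 2 h replicate 1, and was not called without vehicle 2 h replicate 2 (0.43) or vehicle 8 h replicate 1 (0.47). The difference with aldosterone was 0.27 (95% interval -0.14 to 0.68).

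Cald1 encodes caldesmon, which holds actin and tropomyosin in an inhibited state. Its brightest probe set read 11.76, 13.21 and 13.12 in vehicle at 2 h, 12.87, 12.89 and 12.80 at 4 h, and 12.58, 12.65 and 12.54 at 8 h. Its aldosterone values were 13.15, 13.08 and 12.99 at 2 h, 12.80, 12.83 and 12.91 at 4 h, and 12.40, 12.49 and 12.31 at 8 h. Every pool but vehicle 2 h replicate 1 lay in order by time. The vehicle difference was -0.11 with that array and -0.57 (adjusted p = 7.15e-06) without it, and its remaining probe sets, at -0.65 and -0.91, passed the threshold with all arrays. With aldosterone the difference was -0.68 (adjusted p = 0.0226) and lost its call without aldosterone 2 h replicate 1 (-0.64) or 2 (-0.67), or aldosterone 8 h replicate 1 (-0.68) or 3 (-0.63).

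Synpo2, the actin-bundling protein synaptopodin 2, read 6.37, 6.33 and 5.49 in vehicle at 2 h, 6.43, 6.65 and 5.94 at 4 h, and 5.90, 5.69 and 5.43 at 8 h. With aldosterone the values were 6.13, 5.91 and 5.85, then 5.89, 5.91 and 6.12, then 4.92, 4.93 and 5.22. The vehicle pools overlapped between 2 and 8 h and the aldosterone pools did not. The differences were -0.39 (95% interval -0.87 to 0.09) in vehicle and -0.94 (-1.42 to -0.46, adjusted p = 0.00204) with aldosterone, and the vehicle difference was -0.68 and past the threshold without vehicle 2 h replicate 3, and -0.24 without vehicle 2 h replicate 1. Des, the intermediate filament protein desmin, was dim on this array (4.60 to 5.91 over the 18 samples) and fell by 0.64 in vehicle (adjusted p = 0.0229). That call was lost without vehicle 2 h replicate 2 (-0.55), or vehicle 8 h replicate 1 (-0.60) or 3 (-0.49). Its difference with aldosterone was -0.47 (-0.96 to 0.01).

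Both measured members of the step that switches myosin on and off fell. Mylk encodes myosin light chain kinase. It read 12.87, 12.64 and 12.57 in vehicle at 2 h, 12.08, 12.15 and 11.93 at 4 h, and 11.16, 11.54 and 11.19 at 8 h. Its values with aldosterone were 12.61, 12.63 and 12.47, then 11.85, 12.16 and 12.24, then 11.21, 11.43 and 11.08. The 3 times did not overlap in either treatment, and the falls were 2.63-fold (-1.40 ± 0.13, adjusted p = 9.05e-08) and 2.51-fold (-1.33 ± 0.13, adjusted p = 1.76e-07). Ppp1r14a, the inhibitor that keeps the phosphatase from undoing the kinase, fell 2.05-fold in vehicle and 2.43-fold with aldosterone. Most of its change came early: it fell by 0.88 in vehicle and by 1.09 with aldosterone between 2 and 4 h, and was not called between 4 and 8 h in either treatment.

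The regulators of the programme fell with it. Myocd, the coactivator, read 10.02, 10.85 and 10.37 in vehicle at 2 h, 9.52, 9.55 and 10.03 at 4 h, and 8.66, 8.67 and 8.68 at 8 h. With aldosterone it read 10.40, 10.88 and 10.34, then 9.60, 9.68 and 9.26, then 8.75, 8.83 and 8.72. The 6 pools at 8 h ran from 8.66 to 8.83 and lay below every earlier pool. The falls were 3.35-fold (-1.74 ± 0.19, adjusted p = 6.57e-07) and 3.41-fold (-1.77 ± 0.19, adjusted p = 5.94e-07).

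Srf itself, whose own upstream window holds the pair of CArG boxes printed above, read 8.61, 8.03 and 8.05 in vehicle at 2 h, 7.81, 7.76 and 7.43 at 4 h, and 7.01, 6.71 and 6.74 at 8 h. The aldosterone pools read 8.09, 8.25 and 7.92, then 7.31, 7.73 and 7.68, then 6.31, 6.49 and 6.20. The times did not overlap within either treatment. It fell 2.66-fold (-1.41 ± 0.18, adjusted p = 2.99e-06) and 3.37-fold (-1.75 ± 0.18, adjusted p = 2.47e-07).

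Csrp1, a LIM protein that bridges Srf and GATA factors and binds the cytoskeleton, read 12.28, 12.39 and 12.40 in vehicle at 2 h, 11.65, 11.84 and 11.85 at 4 h, and 11.13, 10.80 and 10.43 at 8 h. Under aldosterone the values were 12.56, 12.61 and 12.56, then 11.47, 12.05 and 12.09, then 10.59, 10.80 and 10.60. It fell 2.97-fold and 3.76-fold with no overlap between times. Tgfb1i1, the focal adhesion adaptor Hic-5, went the other way. It read 10.80, 10.12 and 10.12 in vehicle at 2 h, 10.57, 10.50 and 10.63 at 4 h, and 11.07, 11.04 and 10.69 at 8 h. In the aldosterone pools it measured 10.35, 10.32 and 10.11, then 10.51, 10.61 and 10.75, then 10.77, 11.02 and 10.94. It rose 1.5-fold in vehicle (0.58 ± 0.16, adjusted p = 0.00432; 0.81 without vehicle 2 h replicate 1) and 1.57-fold with aldosterone (0.65 ± 0.16, adjusted p = 0.00198).

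The largest single change was in the adhesion and dense plaque group, where 5 of 9 genes were lower and 2 higher in each treatment. Of all genes 31.9% were lower and 26.6% higher in vehicle, and 27.3% and 29.2% with aldosterone. The 2 of 9 higher thus lie near the share over all genes. Pdlim3, a PDZ and LIM protein that binds alpha-actinin, read 10.25, 9.55 and 9.78 in vehicle at 2 h, 8.07, 8.85 and 8.54 at 4 h, and 6.42, 5.98 and 5.00 at 8 h. Aldosterone pools gave 9.92, 9.63 and 9.67, then 8.35, 9.04 and 8.87, then 5.75, 5.80 and 5.28. The pools of the 3 times did not overlap in either treatment. The fall was 16.7-fold in vehicle (-4.06 ± 0.30, adjusted p = 5.04e-09) and 17.5-fold with aldosterone (-4.13 ± 0.30, adjusted p = 4.82e-09), and more of it came after 4 h (-2.68 in vehicle, -3.15 with aldosterone) than before (-1.37 and -0.99).

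The risers of this group were Itga5 and Pdlim7. Itga5, the alpha chain of the fibronectin receptor, read 9.07, 8.39 and 8.59 in vehicle at 2 h, 9.66, 9.72 and 9.19 at 4 h, and 9.79, 9.83 and 9.58 at 8 h. Its aldosterone values were 8.60, 8.51 and 8.77, then 9.97, 10.59 and 10.19, then 10.04, 10.47 and 9.95. No 2 h pool overlapped a later pool, and the rise was 2.07-fold in vehicle (1.05 ± 0.20, adjusted p = 1.97e-04) and 2.88-fold with aldosterone (1.53 ± 0.20, adjusted p = 3.94e-06). Pdlim7, the adaptor Enigma, read 9.65, 9.24 and 9.26 in vehicle at 2 h, 9.44, 9.73 and 9.59 at 4 h, and 10.22, 10.13 and 9.80 at 8 h. Its values with aldosterone were 9.62, 9.39 and 9.50, then 9.49, 9.81 and 9.59, then 9.88, 10.03 and 9.96. It rose by 0.67 ± 0.14 (adjusted p = 5.1e-04) and 0.46 ± 0.14 (adjusted p = 0.00957), but a second, dimmer probe set of the gene differed by -0.15 and -0.02, and the mean of both did not pass the threshold (0.26 in vehicle, 0.22 with aldosterone).

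Within the same group Itga8, the integrin alpha chain typical of vascular smooth muscle, fell by 0.99 in vehicle and 1.09 with aldosterone, so the integrin chains Itga5 and Itga8 moved in opposite directions. Vcl (vinculin) fell by 0.70 and 0.54, Flna (filamin A) by 0.43 and 0.53, and Actn1 (alpha-actinin 1) by 0.37 and 0.32. The vehicle call of Flna was lost without vehicle 2 h replicate 1 (-0.23, adjusted p = 0.185) or vehicle 8 h replicate 3 (-0.27), and its aldosterone call without aldosterone 8 h replicate 1 (-0.44). Actn1 lost its aldosterone call without aldosterone 2 h replicate 1 (-0.32) or aldosterone 8 h replicate 3 (-0.27). Lpp, a zyxin relative of smooth muscle adhesions, differed by 0.36 (adjusted p = 0.087) in vehicle and 0.15 with aldosterone. The vehicle rise passed the threshold without vehicle 2 h replicate 1 (0.56, adjusted p = 0.00587) or vehicle 8 h replicate 3 (0.51, adjusted p = 0.0298). Tln1, talin 1, which links integrins to actin, read 10.48, 10.10 and 9.99 in vehicle at 2 h, 9.74, 9.81 and 9.42 at 4 h, and 10.22, 10.01 and 9.80 at 8 h. With aldosterone it read 10.08, 10.11 and 10.19, then 9.73, 10.14 and 9.998, then 9.85, 10.02 and 9.95. The 2 h and 8 h pools overlapped, and the differences were -0.18 (95% interval -0.49 to 0.13; -0.03 without vehicle 2 h replicate 1) and -0.19 (-0.50 to 0.12). Tln1 was lower at 4 h than at 2 h in vehicle (-0.53, adjusted p = 0.00874), a call that was lost without vehicle 4 h replicate 3 (-0.42).

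Few of the channel and calcium store genes were called by the probe set that stands for each. Of the 4 tested, 0 were called in vehicle from 2 to 8 h, against 58.5% of all genes. With aldosterone 1, Atp2a2, was called, against 56.5% of all genes. Atp2a2 encodes the sarcoplasmic calcium pump, and without vehicle 2 h replicate 1 it was also called lower in vehicle (-0.27, adjusted p = 0.00866, against -0.11 with all arrays). Its other probe sets fell further in vehicle and passed the threshold with all arrays, as given below. Cacna1c, the pore of the L-type calcium channel, differed by -0.09 (95% interval -0.56 to 0.37; 0.16 without vehicle 2 h replicate 1) in vehicle and by 0.20 (-0.27 to 0.66) with aldosterone. Kcnma1 and Kcnmb1 encode the pore and the smooth muscle beta subunit of the large-conductance potassium channel. Kcnma1 lay near the filter, between 4.02 and 4.84, and its differences of -0.26 and -0.21 cannot be read as stability at that level. Kcnmb1 differed by -0.41 (-0.87 to 0.04) and -0.50 (-0.95 to -0.05). Its vehicle difference was -0.15 without vehicle 2 h replicate 1 and -0.59, past the threshold, without vehicle 2 h replicate 3. With aldosterone it passed without vehicle 2 h replicate 1 (adjusted p = 0.0159) or replicate 3, or without aldosterone 4 h replicate 1. Its dimmer second probe set fell by 0.68 and 0.78 and passed the threshold in both treatments.

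**Figure D2:**
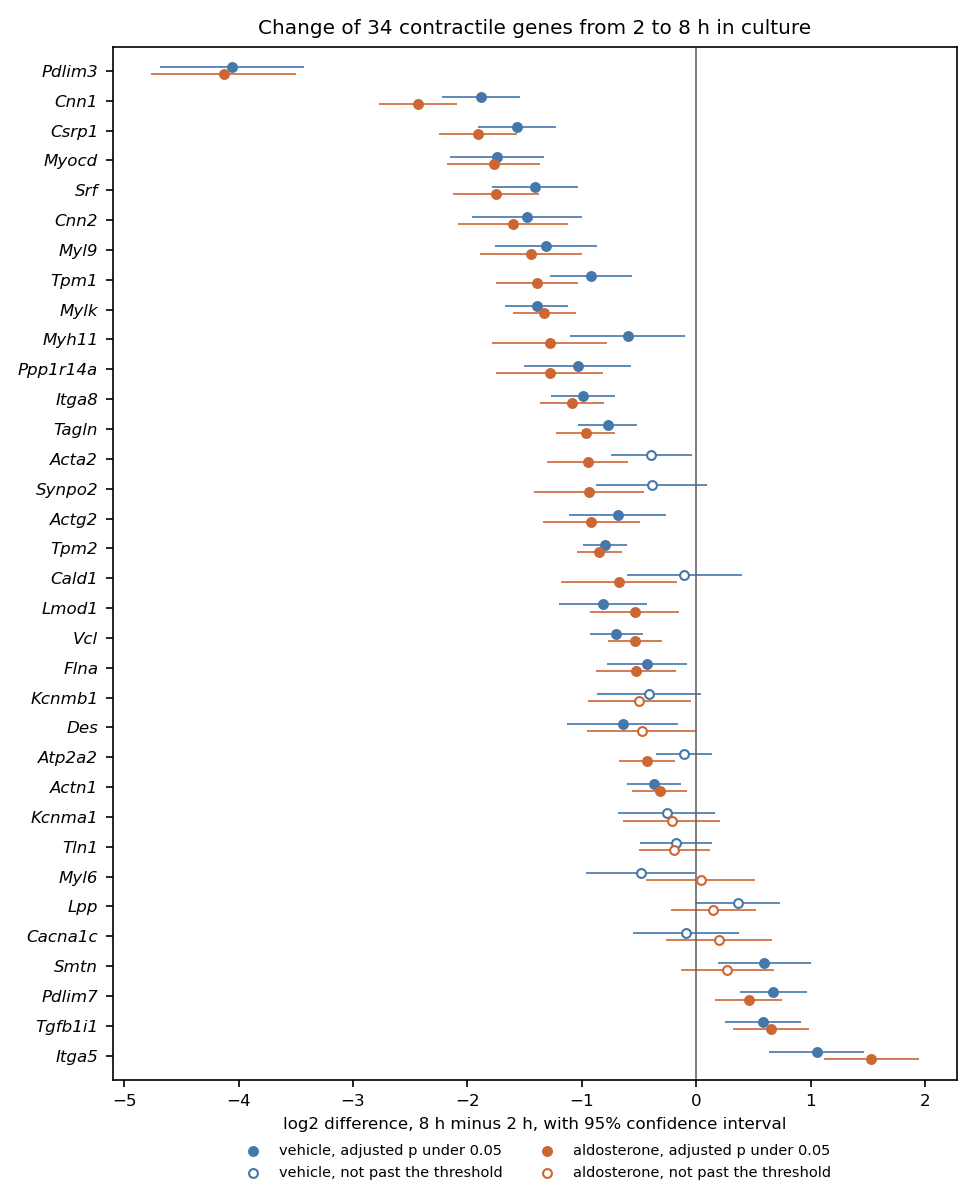
Log2 difference between 8 h and 2 h in culture (horizontal axis) with its 95% confidence interval for the 34 contractile genes, in vehicle (blue) and with aldosterone (orange); filled points passed an adjusted p of 0.05 in limma. Most points lie left of 0, with Pdlim3 beyond -4, and Itga5, Tgfb1i1 and Pdlim7 are filled on the right in both treatments.

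For 15 of the 34 genes several probe sets passed the filter. Whether the probe sets of a gene read the same forms of its transcript was not tested. Over all 58 probe sets past the filter, 32 were lower and 6 higher from 2 to 8 h in vehicle, and 36 were lower and 5 higher with aldosterone. The shares called among all 11236 probe sets past the filter are not given here. These counts are therefore not set against a background. Probe sets of Mylk (-1.40, -1.35 and -1.70 in vehicle), Csrp1 (-1.57 and -1.67), Myh11 (-0.60 and -0.83), Tpm2 (-0.80, -0.90 and -0.66) and Itga5 (1.05 and 1.01) gave the same direction and were all called. Others did not. The probe set that stands for Atp2a2 differed by -0.11 in vehicle, whereas the other 3 fell by 0.95, 0.93 and 0.66 and passed the threshold. The probe sets of Lpp gave 0.36, 0.83, -0.16 and -0.11, of which only 0.83 passed. Those of Tpm1 gave -0.92, -0.45 and -0.05, those of Vcl -0.70 and 0.08, and those of Acta2 -0.39 and, at a mean of only 4.21, -0.14.

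**Figure D3:**
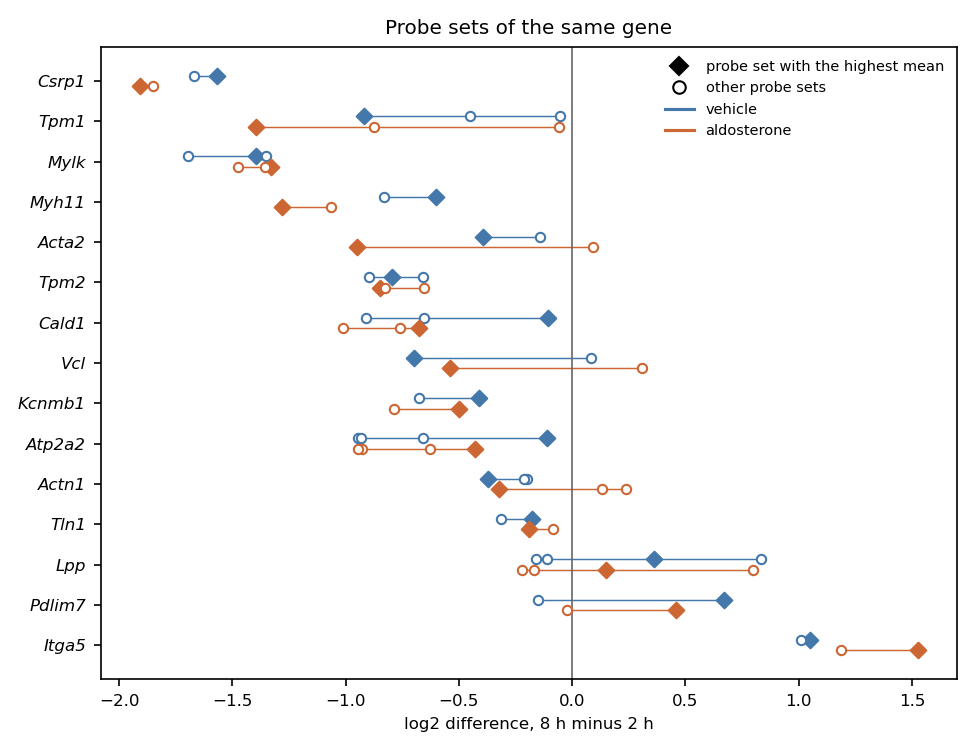
Log2 difference between 8 h and 2 h (horizontal axis) for each probe set of the 15 genes that several probe sets represent above the filter, vehicle in blue and aldosterone in orange; diamonds are the probe set with the highest mean, which stands for the gene, and circles the others. Mylk, Csrp1 and Itga5 stay on one side of 0, whereas the probe sets of Lpp, Vcl and Pdlim7 lie on both sides.

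The descent had different shapes. In vehicle 17 of 34 genes were lower and 1 higher at 4 h than at 2 h, against 40.2% of all genes called (25.6% lower, 14.6% higher), and 16 were lower and 3 higher at 8 h than at 4 h, against 37.7% (17% lower, 20.7% higher). With aldosterone the counts were 10 lower and 1 higher at the first step, against 38.6% of all genes called (21.3% lower, 17.3% higher), and 18 lower and 1 higher at the second, against 37.5% (16.6% lower, 21% higher). With all arrays Cnn1, Cnn2, Myocd, Mylk, Tpm2, Pdlim3, Srf and Csrp1 were called lower at both steps in both treatments. Myocd, Mylk and Csrp1 kept those 4 calls with each sample left out, and the other genes lost at least 1 of them. Acta2, Myh11, Tagln, Vcl, Synpo2 and Atp2a2 were called lower between 4 and 8 h in both treatments. Tagln and Vcl kept both of these calls with each sample left out. Those of Acta2, Myh11, Synpo2 and Atp2a2 in vehicle held in 13, 8, 14 and 14 of the 18 fits that each left out 1 sample. The call of Myh11 with aldosterone held in 14 of these fits, and those of Acta2 and Synpo2 with aldosterone in all 18. Lpp fell by 0.49 in vehicle to 4 h and rose by 0.85 from 4 to 8 h. The first of these calls was lost without vehicle 2 h replicate 1 (-0.29), or vehicle 4 h replicate 1 (-0.51) or 3 (-0.38).

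The count of the first step was the least steady. In vehicle it fell from 18 genes to 10 without vehicle 4 h replicate 1 and to 10 without vehicle 4 h replicate 3. It was 14 (11 lower, 3 higher) without vehicle 2 h replicate 1, against 19.7% of all genes lower and 20.1% higher. Without that array Actg2, Cnn2, Kcnmb1, Tpm1, Myl9, Flna, Srf and Lpp lost their first-step call in vehicle, Myh11 (-0.38, adjusted p = 0.040, against 0.05 with all arrays) and Cald1 (-0.31, against 0.16) were called lower, and Pdlim7 and Tgfb1i1 higher. Centring each array on its median, which moved the median of all genes in this step from -0.13 to near 0, left 7 lower and 3 higher; the same centring gave 14 lower and 5 higher in vehicle from 4 to 8 h, and 16 lower and 5 higher from 2 to 8 h, where the median of all genes moved from -0.07 to 0.09. With aldosterone the first-step count fell from 11 to 7 without aldosterone 2 h replicate 1 and to 6 without aldosterone 4 h replicate 1. The shares of all genes called after centring, and in the other fits that left out a sample, are not given here. Those counts are therefore not set against the background.

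Other genes of the same pathways, apart from the 34, went through the same hours. Among the coactivators and modulators of Srf, 15 of 24 were lower and 4 higher in vehicle from 2 to 8 h, against 31.9% and 26.6% of all genes. With aldosterone 13 were lower and 3 higher, against 27.3% and 29.2% of all genes. Mef2c and Mef2d, MADS-box factors related to Srf, fell 8.56-fold and 3.65-fold in vehicle and 6.27-fold and 3.2-fold with aldosterone. Klf4, a factor known to repress contractile genes, fell 4.99-fold and 4.17-fold. Heyl, a Notch target, lay between 6.95 and 7.31 in vehicle at 2 h and between 3.57 and 3.98, under the filter level, at 8 h, a fall of at least 9.07-fold against that level.

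Immediate early genes, several of them targets of Srf, are switched on within minutes by handling, serum or stretch. All 11 tested were called in each treatment, 9 lower and 2 higher at 8 h, with a median difference of -2.44 in vehicle. Over all genes 58.5% were called in vehicle and 56.5% with aldosterone. In vehicle the 2 h pools of Fos lay between 14.40 and 14.90 and the 8 h pools between 8.91 and 9.23. For Nr4a1 these ranges were 11.35 to 12.02 and 6.56 to 6.58. Fosb lay between 11.71 and 12.12 at 2 h and between 2.87 and 2.92 at 8 h, under the filter level, a fall of at least 239-fold against that level. Atf3 fell 16.3-fold in vehicle and 13.1-fold with aldosterone.

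Of the genes for the control of contraction by calcium, cyclic GMP and membrane potential, only those of smallest p in vehicle are given, and these fell. Ryr2, a calcium release channel, fell 6.35-fold in vehicle and 4.07-fold with aldosterone, and Gucy1a1, a subunit of the nitric oxide receptor, 4.34-fold and 2.96-fold. Abcc9, a subunit of the ATP-sensitive potassium channel, fell 2.85-fold and 2.4-fold. Of other adhesion genes, 10 of 25 were lower and 4 higher in vehicle, against 31.9% and 26.6% of all genes. With aldosterone 12 were lower and 3 higher, against 27.3% and 29.2% of all genes. Itgb5, Pdlim5 and Fblim1 fell by 1.53, 1.43 and 1.55 in vehicle, whereas Itgb3, the beta chain of the vitronectin receptor, rose, with pools between 3.18 and 3.80 at 2 h and between 5.05 and 6.44 at 8 h. The cytoplasmic actin and nonmuscle cytoskeleton list had 8 of 26 lower and 8 higher in vehicle, near the shares over all genes (31.9% and 26.6%). With aldosterone the list had 8 lower and 4 higher, against 27.3% and 29.2% of all genes. Its median difference was -0.02 in vehicle and -0.14 with aldosterone, beside -0.62 and -0.76 for the contractile genes. Myl12b, a nonmuscle regulatory light chain, fell 6.38-fold, Dstn and Gsn, which cut actin filaments, 2.17-fold and 1.76-fold, and Tpm4, a nonmuscle tropomyosin, rose 1.55-fold.

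Markers of other cells in the wall moved over the same hours. The summed signal of the 9 smooth muscle markers ran from 15.80 to 16.22 (log2) in vehicle at 2 h, from 15.85 to 15.96 at 4 h and from 15.23 to 15.49 at 8 h, and with aldosterone from 16.23 to 16.31, from 15.76 to 16.04 and from 15.11 to 15.34. The 8 fibroblast markers ran from 15.15 to 15.32 at 2 h and from 13.76 to 14.24 at 8 h in vehicle, with 7 of 8 lower. Of the 9 macrophage markers 7 were lower and 1 higher, with sums from 10.86 to 11.71 at 2 h and from 9.50 to 10.18 at 8 h. Of the 10 endothelial markers 6 were lower, with sums from 10.74 to 11.64 and from 10.25 to 10.49, and Tie1 was under the filter throughout. Of the 8 fat cell markers 6 were lower, with sums from 14.18 to 14.84 and from 13.52 to 13.66. Over all genes 31.9% were lower and 26.6% higher in vehicle from 2 to 8 h. The part that a changing cell makeup has in the fall of the contractile genes was not tested. Signal of the 3 prime over the 5 prime control probe sets, a sign of RNA breakage, differed by 0.36 to 0.79 log2 units for Gapdh and 1.51 to 2.13 for beta-actin over the 18 samples. Its Gapdh mean was 0.61 in both 2 h groups, and 0.43 in vehicle and 0.46 with aldosterone at 8 h.

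Aldosterone was not shown to change any of the 34 contractile genes. At an adjusted p under 0.05 limma called 0 of 34 at 2 h (0.0705% of all genes), 0 at 4 h (0.24%), 0 at 8 h (1%) and 0 for the mean over the 3 times (1.1%). At an unadjusted p under 0.05 there were 1, 1, 5 and 4 genes, or 2.94%, 2.94%, 14.7% and 11.8% of the 34, against 11.0%, 3.76%, 6.26% and 8.43% of all genes. The median difference of the 34 was 0.03, 0.04 and -0.08 at 2, 4 and 8 h, and single genes lay between -0.65 and 0.72. The 95% interval reached a median of 0.38 log2 units to either side at 1 time and 0.22 for the mean, so smaller effects were not resolved and a missed threshold does not show that the hormone was without effect. The test of whether its effect differed between times called 0 of 34 (limma F test, 0.155% of all genes), with 1 gene, Itga5, at an unadjusted p under 0.05.

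At 2 h the aldosterone and vehicle pools of 2 genes, Myh11 and Csrp1, did not overlap, both higher with aldosterone, as was the case in either direction for 13.9% of all genes. The smallest p values belonged to Myh11 (0.62 ± 0.24, 95% interval 0.12 to 1.13, adjusted p = 0.351), Acta2 (0.29 ± 0.17, -0.06 to 0.64) and Cald1 (0.38 ± 0.24, -0.13 to 0.88). These are genes in which vehicle 2 h replicate 1 was low, and without that array the differences were 0.20, -0.02 and -0.09, none with an unadjusted p under 0.05.

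At 4 h the pools of Itga5 (higher) and Atp2a2 (lower) did not overlap, against 10.6% of all genes. Itga5 read 9.97, 10.59 and 10.19 with aldosterone and 9.66, 9.72 and 9.19 in vehicle, a difference of 0.72 ± 0.20 (95% interval 0.31 to 1.14, adjusted p = 0.344), and its second probe set gave 0.77. Tln1 differed by 0.30 (-0.01 to 0.61) and Synpo2 by -0.37 (-0.85 to 0.12).

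At 8 h the pools of 9 genes did not overlap, 2 higher (Myocd and Itga5) and 7 lower (Acta2, Synpo2, Tpm1, Cald1, Itga8, Srf and Atp2a2), which is 9 of 34 against 14.5% of all genes. Tpm1 read 10.64, 10.86 and 10.80 with aldosterone and 11.30, 11.11 and 11.39 in vehicle (-0.50 ± 0.17, 95% interval -0.86 to -0.14, adjusted p = 0.376), Synpo2 differed by -0.65 ± 0.23 (-1.13 to -0.16, adjusted p = 0.412), and Srf by -0.49 ± 0.18 (-0.86 to -0.11, adjusted p = 0.461). The other probe sets of Tpm1 gave -0.49 and -0.14. At the earlier times its pools overlapped: it read 12.24, 12.11 and 12.14 with aldosterone and 12.49, 12.06 and 12.003 in vehicle at 2 h, and 11.12, 11.78 and 11.83 against 11.80, 11.83 and 11.47 at 4 h. For Synpo2 the weighting of arrays by their quality decided the call, since it then passed the threshold (-0.70).

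Averaged over the 3 times, Itga5 was 0.36 ± 0.11 higher with aldosterone (95% interval 0.12 to 0.60, adjusted p = 0.218). Without vehicle 2 h replicate 1 it was 0.43 ± 0.10 higher and passed the threshold (adjusted p = 0.0381). Synpo2 differed by -0.37 (-0.65 to -0.09, adjusted p = 0.347) and Srf by -0.24 (-0.46 to -0.02, adjusted p = 0.495). The 9 defining markers lay between -0.10 and 0.18 in this average, and the interval of each included 0. Highest were Myh11 at 0.18 (-0.11 to 0.47; 0.04 without vehicle 2 h replicate 1), Des at 0.15 (-0.13 to 0.43) and Lmod1 at 0.15 (-0.08 to 0.37), and lowest was Cnn1 at -0.10 (-0.29 to 0.10). Acta2 was at 0.01 (-0.20 to 0.21), Myocd at 0.01 (-0.22 to 0.25), Smtn at 0.06 (-0.18 to 0.29) and Mylk at -0.05 (-0.21 to 0.11). Pdlim3, the gene that fell furthest in culture, was at -0.01 (-0.38 to 0.35).

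**Figure D4:**
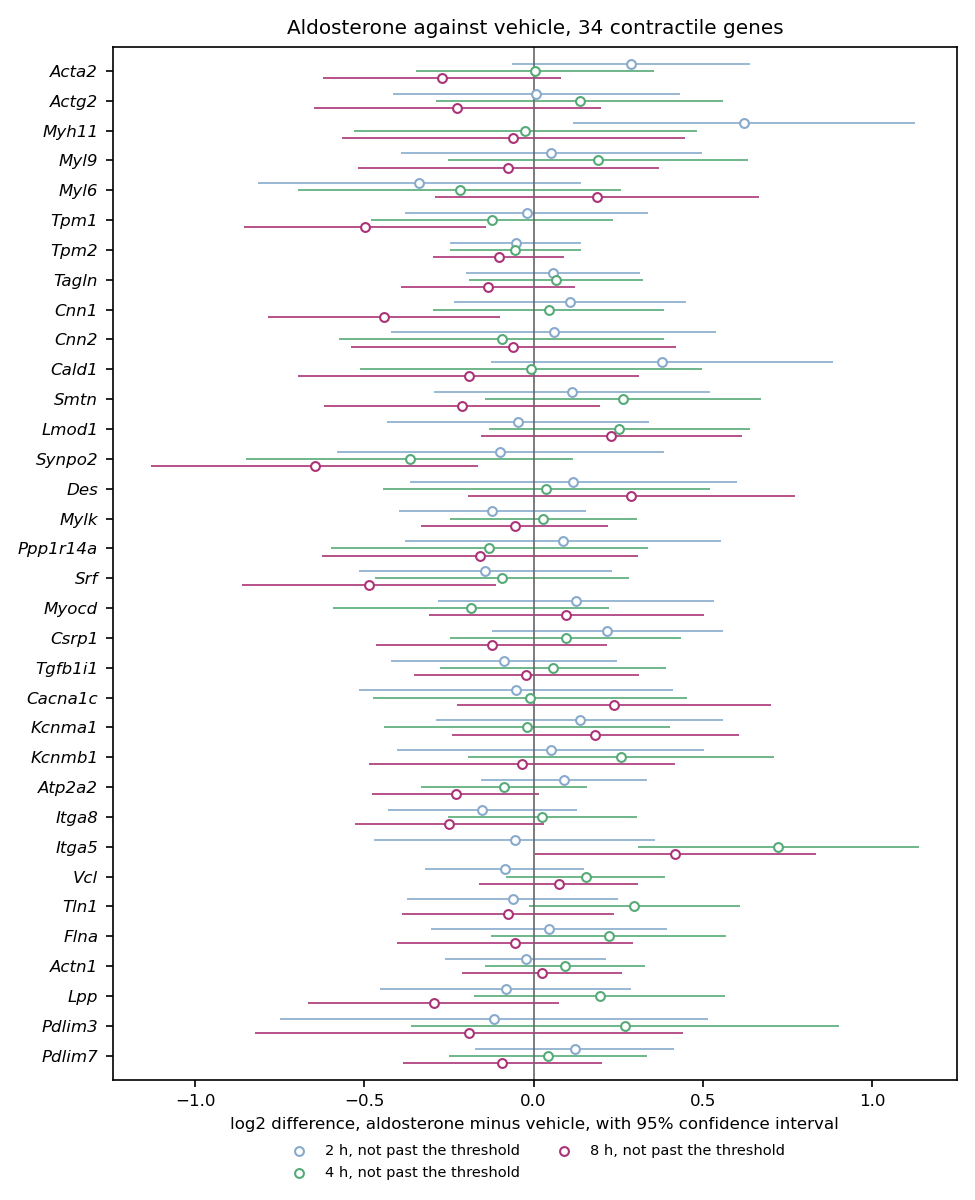
Log2 difference between aldosterone and vehicle (horizontal axis) with its 95% confidence interval for the 34 contractile genes at 2, 4 and 8 h; open points, here all of them, did not pass an adjusted p of 0.05 in limma. The points scatter about 0, and those farthest from it are Itga5 at 4 h, Synpo2 at 8 h and Myh11 at 2 h.

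In the related lists, aldosterone moved single genes. Prrx1, a homeobox factor that works with Srf, read 9.27, 9.30 and 9.15 with aldosterone at 8 h and 9.88, 10.12 and 10.06 in vehicle. It was 1.72-fold lower with aldosterone than in vehicle at that time (limma, -0.78 ± 0.14, adjusted p = 0.00788). It was also lower in the mean over the 3 times (-0.47, adjusted p = 0.0057). It was the only one of the 24 Srf modulators called at any time. Over all genes 0.0705% were called at 2 h, 0.24% at 4 h and 1% at 8 h. Kcnj8, the pore of the ATP-sensitive potassium channel of vascular muscle, read 7.30, 7.86 and 7.03 at 8 h with aldosterone and 6.64, 6.40 and 5.69 in vehicle, 2.22-fold higher. Among the markers of other cell types Mrc1, a macrophage receptor, was 2.41-fold higher with aldosterone at 8 h, and 0 fibroblast, endothelial or fat cell markers were called at any time. Prrx1, Kcnj8 and Mrc1 were named after their values were seen. The summed fat cell signal at 8 h did not overlap, from 13.93 to 14.18 with aldosterone and from 13.52 to 13.66 in vehicle. The cardiac sum ran from 6.16 to 8.57 and from 5.50 to 6.34. Fibroblast, endothelial and macrophage sums overlapped between the treatments at that time. The part of cell makeup in the aldosterone comparisons was not tested. The 3 prime over 5 prime control signal differed between the treatments by between -0.11 and 0.03 log2 units. With 3 pools against 3 the smallest possible p of the exact permutation test (two-sided) is 0.1, so none of the 6 tests could pass 0.05 (p between 0.5 and 1, adjusted p = 1).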

How the data were processed

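Total RNA of 18 aorta pools was measured on 1-colour Affymetrix arrays, with labelling by the standard biotin protocol per the labels' protocols. The authors deposited log2 values. Per the submitters' processing notes these come from GCRMA, which corrects background by probe sequence, normalizes arrays to each other and summarises each probe set. The GCRMA version is not given in the sources used here. Intensities before that step were not used here, so array number and replicate spread, not read depth, limit precision.

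Gene names came from the platform annotation: 20380 probe sets had 1 gene, 691 several and 1606 none, and 64 control probe sets were set aside. A gene was kept when its log2 value exceeded 4 in at least 3 of 18 samples, and its probe set with the highest mean stood for it (7092 genes). One limma 3.58.1 model in R 4.3.3 held the 6 groups (12 residual degrees of freedom), with eBayes and an intensity trend. The 11 comparisons were each adjusted by Benjamini-Hochberg over all 7092 genes at 0.05. Intervals are at 95% and errors are SE of the model. The script was tested on simulated data. Comparisons that share a group of samples are not independent.

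The members and gene lists were chosen with earlier results of these data known. Named in full were the defining markers and regulators, the largest risers and fallers called from 2 to 8 h in vehicle (of at most 6 risers only 4 were called), and for each aldosterone comparison the 3 genes of smallest p where none was called. From each pathway list up to 4 genes of smallest p in that vehicle comparison were named. The counts and 1 gene of 1 pathway list are not reported here. The alternatives were the prior, the filter, the probe set rule, normalization, array weights, the replicate number as a block, only the groups compared, and leaving out each sample. Promoter sequences are RefSeq's for GRCm38.p6, and 32 of the 39 members matched.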

Additional observations from a re-analysis of the deposited data

How the results depend on the processing

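None of the contractile genes was called for aldosterone against vehicle at 2 or 4 h, or for the difference between times, under any alternative run. At 8 h array weights gave 1 gene (Synpo2, lower), and for the mean of the 3 times array weights gave 1 (Itga5, higher). Leaving out each sample gave 0 to 1 for the mean of the 3 times, the 1 being Itga5 without vehicle 2 h replicate 1, and 0 at each single time. In vehicle from 2 to 4 h, 18 genes became 10 with median centring (8 of them among the 18), 6 with only the groups compared, and 10 to 20 with each sample left out. With aldosterone from 2 to 4 h, 11 became 6 to 16 with each sample left out. The counts from 2 to 8 h stayed between 18 and 27 in vehicle and between 23 and 28 with aldosterone, and 0 calls of the named genes reversed. The shares of all genes called under the alternatives are not given beside these counts. Values that were not called did change sign: Acta2 at 2 h (0.29 for aldosterone against vehicle, -0.02 without vehicle 2 h replicate 1), Cald1 at 2 h (0.38, but -0.02 with array weights and -0.09 without vehicle 2 h replicate 1) and Cald1 in vehicle from 2 to 8 h (-0.11, but 0.06 with median centring and 0.15 or 0.10 without vehicle 2 h replicate 2 or 3). In vehicle, Myh11 lost its call without the trend, without the filter, with median centring (-0.44) and with only the groups compared. Smtn and Tgfb1i1 lost theirs with only the groups compared, and Acta2 gained one with the stricter filter, with array weights (-0.63) and with the replicate block. Cald1 gained one in vehicle with array weights (-0.49) and with the mean of its probe sets (-0.56), and lost its call with aldosterone without the filter and with median centring (-0.67). Pdlim7 lost its call in both treatments with the mean of its probe sets, and Smtn gained one with aldosterone with only the groups compared (0.27). The cause of these changes was not tested. The fits of only the groups compared and of samples left out also hold fewer samples. The replicate numbers were not shown to pair the samples. Deviations of same-numbered pools correlated at between -0.19 and 0.28, and those of differently numbered pools at between -0.14 and 0.16. With 3 pools in each group these values cannot exclude a pairing. With the replicate block the counts were 25 and 26 from 2 to 8 h and 17 and 12 from 2 to 4 h in vehicle and with aldosterone. Genes near the filter, such as Kcnma1, have little signal above background.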
